A study of Mus musculus with 18 samples.

Results

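Haem is built from glycine and succinyl-CoA in a chain of enzymes that starts and ends in the mitochondrion and runs through the cytosol in between. In erythroid cells the chain is switched on as the cell fills with haemoglobin, and the mouse spleen, unlike the adult human spleen, makes red cells in its red pulp. The 9 genes described here are enzymes and mitochondrial carriers of haem synthesis, taken in pathway order by their symbols: Slc25a38, Alas2, Alad, Uros, Urod, Cpox, Ppox, Fech and Abcb10. They are 9 of the 19326 rows of the expression table, each with 1 row. All 9 passed the filter on low values, as did 12969 genes in all, which asked for a group mean of 1 FPKM or more somewhere among the groups. FPKM is fragments scaled to transcript length and to the library's total.

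The libraries come from spleens of 10-week-old mice of the outbred ICR stock, with 3 libraries in each of 6 groups. On a high fat diet (HFD) were the groups HFD+AOS, HFD+AOS-FMT, HFD+control-FMT and HFD alone, and the labels give AOS and control without the diet. AOS is read here as alginate oligosaccharide and was dosed at 10 mg/kg, while FMT is read as faecal microbiota transplantation, from donors given AOS at 10 mg/kg or from control donors. Sex, feeding time, the preparation of the recipients and whether donors were pooled are not given in the labels, nor do they say whether replicate libraries are separate mice. P-values therefore measure the spread between these libraries, which may be technical in part.

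Column totals ran from 627964 to 831448 FPKM, and the number of reads behind a value is unknown. Spleen markers were present: all 8 B cell and all 9 T cell genes on the lists reached 1 FPKM in every group. The libraries also differed in marker genes of other cells. The 11 neutrophil genes summed to 378.2 to 1507 FPKM in the 15 libraries of the other groups, against 15980, 4361 and 831.9 FPKM in control replicates 1, 2 and 3. The 10 exocrine pancreas genes summed to as much as 15430 FPKM in an HFD+AOS library and as little as 22.34 FPKM in a control library. All 19 erythroid genes on the list that were in the table reached 1 FPKM in every group, and haemoglobin genes took 10.8% to 34.3% of a library's FPKM.

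The genes lie at separate places in the genome (GRCm38), and the position of Fech is not reported here. Slc25a38 is at chr9:120110374-120124504 on the plus strand, Alas2 at chrX:150547375-150570638 on the plus strand and Alad at chr4:62509169-62519918 on the minus strand. Uros is at chr7:133686243-133710072, Urod at chr4:116989965-116994413 and Ppox at chr1:171275990-171281186, all on the minus strand. Cpox is at chr16:58670292-58717636 on the plus strand and Abcb10 at chr8:123952459-123983122 on the minus strand.

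The promoters are shown because the 9 genes moved together across the libraries, and GATA1, an erythroid transcription factor, binds the letters AGATAA and TGATAA. The 250 bases before each RefSeq start were searched on both strands (GRCm38.p6, 10 starts of 8 genes, with Fech left out). Of these, 3 windows held either run, those of Alas2, Cpox and the second start of Uros. These 3 are printed with Abcb10, which held neither. Each runs 5′ to 3′ on the gene's strand, and the match is in capitals, read on the opposite strand: TTATCT is the reverse complement of AGATAA and TTATCA that of TGATAA.
Alas2, chrX:150547167-150547416, plus strand: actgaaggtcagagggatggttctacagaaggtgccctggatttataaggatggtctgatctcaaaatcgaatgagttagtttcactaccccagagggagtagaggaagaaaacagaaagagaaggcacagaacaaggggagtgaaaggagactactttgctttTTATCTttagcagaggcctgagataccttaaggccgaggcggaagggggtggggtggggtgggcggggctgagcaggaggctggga
Cpox, chr16:58669958-58670207, plus strand: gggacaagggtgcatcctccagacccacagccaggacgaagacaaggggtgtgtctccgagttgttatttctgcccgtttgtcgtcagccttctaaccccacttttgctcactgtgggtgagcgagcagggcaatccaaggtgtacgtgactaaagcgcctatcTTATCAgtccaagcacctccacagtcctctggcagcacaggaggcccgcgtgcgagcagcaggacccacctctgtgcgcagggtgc
Uros, second start, chr7:133702501-133702750, minus strand: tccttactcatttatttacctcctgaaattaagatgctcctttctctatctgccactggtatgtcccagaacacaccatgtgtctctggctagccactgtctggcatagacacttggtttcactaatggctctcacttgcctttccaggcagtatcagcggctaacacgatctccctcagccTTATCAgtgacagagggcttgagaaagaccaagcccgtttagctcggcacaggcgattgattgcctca
Abcb10, chr8:123983123-123983372, minus strand: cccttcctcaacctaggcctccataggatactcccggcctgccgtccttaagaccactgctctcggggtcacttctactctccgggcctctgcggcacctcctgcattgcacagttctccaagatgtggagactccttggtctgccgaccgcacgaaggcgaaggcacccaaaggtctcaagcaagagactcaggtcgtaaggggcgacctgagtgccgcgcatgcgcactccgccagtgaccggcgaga
The matches in Alas2 and in Cpox both begin 86 bases before the start, and that in Uros 68 bases before it. Among all 32851 mouse promoter windows of this length, 16.6% held such a run, so 3 of 10 starts is a description of letters and not of binding. The letters of a TATA box, TATAAA, were searched on both strands and stood on the strand opposite to the gene, as TTTATA in the printed sequence, 209 bases before the start of Alas2 and in none of the other 9 windows, against 12.4% of all windows. The box CCAAT, on either strand, was found in the windows of Alad, Urod and Ppox, with 4 matches in Ppox, against 33.8% of all windows. The CACCC box, CCNCNCCC on either strand, had 4 matches within 42 bases of the Alas2 start, was found in Slc25a38, Alad and Uros too, and occurred in 45.9% of all windows.

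The pathway was expressed in every library, at levels that differed between steps. On the FPKM scale, which is per length, Alas2, the erythroid 5-aminolevulinate synthase that makes the first intermediate and limits the pathway, was highest with a mean of 447.5 FPKM over the 18 libraries. Alad, which joins pairs of 5-aminolevulinate into porphobilinogen, averaged 284.0 FPKM, and Fech, ferrochelatase, which inserts iron in the last step, 144.5 FPKM. Urod, uroporphyrinogen decarboxylase, averaged 104.4 FPKM and Cpox, coproporphyrinogen oxidase, 85.14 FPKM. The remaining 4 lay close together: Ppox, protoporphyrinogen oxidase, at 64.69 FPKM, Abcb10, a transporter of the inner mitochondrial membrane needed for haem synthesis in erythroid cells, at 54.87 FPKM, Uros, uroporphyrinogen III synthase, at 52.84 FPKM and Slc25a38, the mitochondrial glycine carrier, at 50.44 FPKM. The highest library was control replicate 1 for all 9 genes and the lowest was HFD replicate 2 or 3. Between these extremes Alas2 differed 3.85-fold, Alad 3.67-fold and Fech 3.62-fold, while Slc25a38 differed 2.21-fold.

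**Figure D1:**
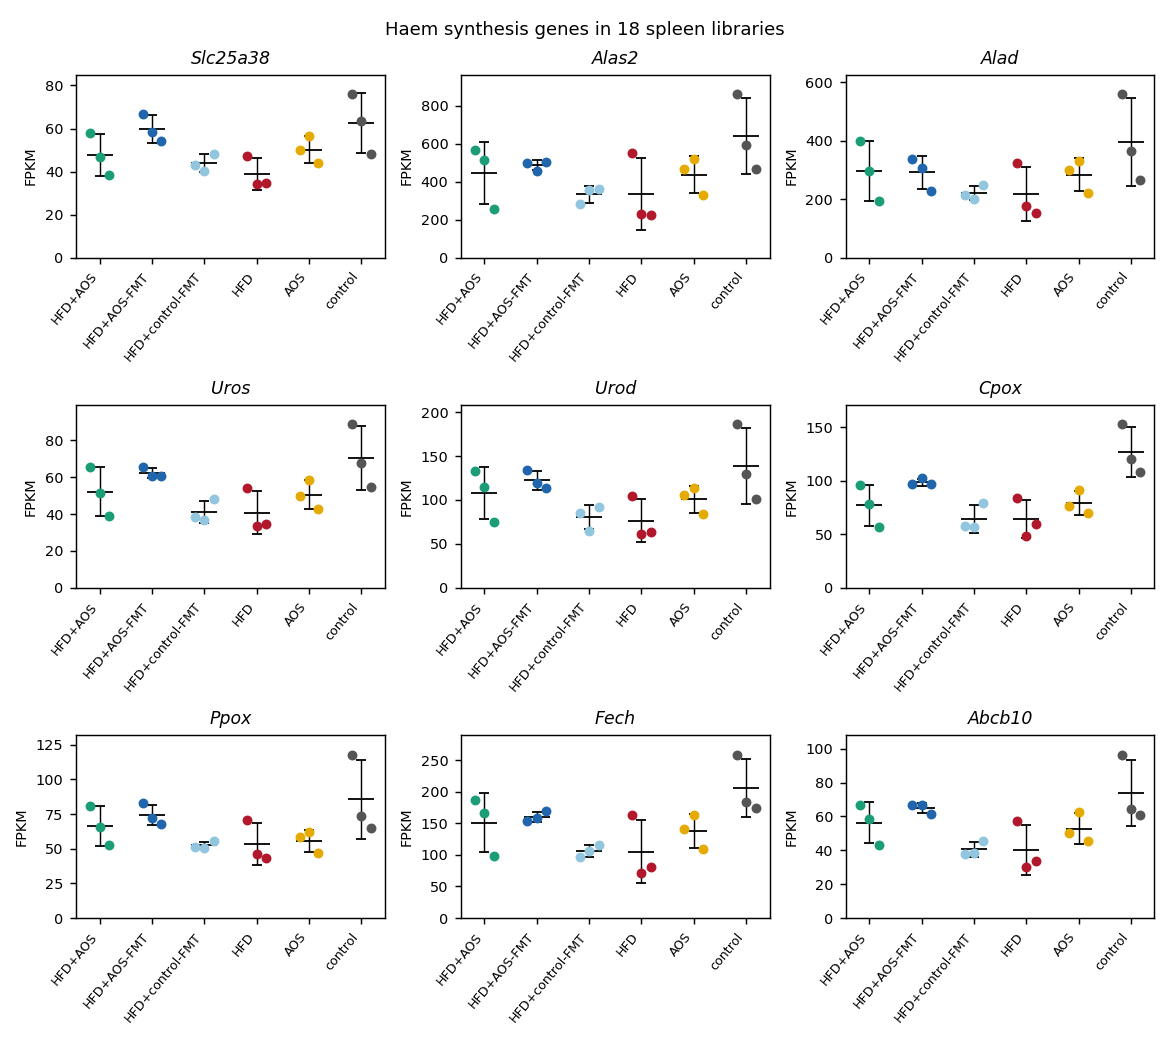
FPKM of each of the 9 haem synthesis genes in the 18 libraries (points), by group, with the group mean (long bar) and SD (short bars, n = 3). Control replicate 1 is the highest point of every panel, and the HFD+AOS-FMT libraries lie close together in most of them.

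Group means had the same ends for all 9 genes: control was highest, and HFD or HFD+control-FMT was lowest. HFD+AOS-FMT came next after control for 8 genes, the exception being Alad. For 8 genes the mean ± SD ranges of all neighbours in this order met. Cpox had neighbours whose ranges did not meet, HFD+AOS-FMT below control (98.55 ± 3.19 FPKM and 127.1 ± 23.1 FPKM, n = 3 each) and HFD+AOS-FMT above AOS (79.16 ± 10.9 FPKM, n = 3). With limma's F test over the 6 groups, 0 of the 9 passed an adjusted p of 0.05 and 7 had an unadjusted p under 0.05. The shares of all 12969 genes were 0.116% and 22%. The share of a gene's variance on the log2 scale that lay between groups, given as a description, was largest for Cpox at 69.9% and smallest for Alad at 40.4%.

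On the high fat diet alone all 9 genes were below control in mean, where 31.5% of all genes tested were, and the oxidase Cpox and the transporter Abcb10 fell by the test. Cpox measured 84.35, 48.71 and 60.05 FPKM in HFD replicates 1, 2 and 3 and 152.86, 120.33 and 108.15 FPKM in control replicates 1, 2 and 3. The groups did not overlap, and HFD replicate 1 was the nearest to control. Cpox fell by 0.99 on the log2(FPKM + 1) scale (SE 0.208, limma adjusted p = 0.0443). Abcb10 measured 57.25, 29.89 and 33.87 FPKM in HFD and 96.58, 64.14 and 61.13 FPKM in control. Again HFD replicate 1 came close to the lowest control library without reaching it, and the log2 difference was -0.885 (SE 0.223, limma adjusted p = 0.0479). The 2 calls among 9 members stand beside 1.3% of all genes tested called lower and 2.75% called in either direction.

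For the other 7 genes the HFD differences ran from -0.65 for Ppox to -1.03 for Fech on the log2 scale, with limma adjusted p between 0.0505 and 0.0998. Slc25a38, which brings in glycine, had 47.31, 34.44 and 34.49 FPKM in HFD and 75.97, 63.39 and 48.05 FPKM in control. The groups were apart, with HFD replicate 1 just under the lowest control library. Alas2 had 552.58, 227.56 and 224.20 FPKM in HFD and 862.49, 596.34 and 468.38 FPKM in control, a log2 difference of -1.03 (SE 0.346, limma adjusted p = 0.0859). Here HFD replicate 1 lay inside the control range, and the other pair of HFD libraries stood at less than any control value. Fech had 162.76, 71.64 and 81.69 FPKM in HFD and 259.30, 183.93 and 174.59 FPKM in control, so the groups did not overlap although the log2 difference of -1.03 missed the threshold (SE 0.277, limma adjusted p = 0.0525). Groups were apart for 5 genes, Slc25a38, Uros, Cpox, Fech and Abcb10, against 5.44% of all genes apart with HFD lower. All 9 had an unadjusted p under 0.05 with HFD lower, against 9.08% of all genes.

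The members' median log2 difference between HFD and control was -0.88 beside a median of 0.10 over all genes tested, that is -0.98 relative to it. Scaling each library by the median ratio instead moved the median of all genes to -0.001 and left the members at -0.99 relative to it, but 0 of the 9 then passed the threshold. The calls sat at the edge of the threshold. They were lost in most settings that left out a library (0 called without control replicate 1, control replicate 2, HFD replicate 2, HFD replicate 3 or any of several libraries outside the comparison), and all 9 genes were called without HFD replicate 1 or without control replicate 3. The median log2 difference ranged from -1.16 without HFD replicate 1 to -0.62 without control replicate 1.

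Mice on the diet that received control-FMT also had lower haem pathway means than control. This held for all 9 genes, against 34.2% of all genes, and Cpox (57.45, 56.69 and 79.69 FPKM in HFD+control-FMT) and Abcb10 (37.93, 38.36 and 45.61 FPKM in HFD+control-FMT) fell, by 0.97 (SE 0.208, limma adjusted p = 0.0272) and 0.82 (SE 0.223, limma adjusted p = 0.0472). Genes called lower made up 1.94% of all genes in this comparison, and genes called in either direction 5.13%. All 9 members had an unadjusted p under 0.05 with HFD+control-FMT lower, against 9.41% of all genes. The control libraries are the same ones as above, so the 2 comparisons are not independent. In all, 8 genes did not overlap between the groups, all but Slc25a38, against 8.29% of all genes apart with HFD+control-FMT lower. Slc25a38 had 42.81, 40.30 and 48.33 FPKM in HFD+control-FMT, and the lowest control library stood at 48.05 FPKM. The median difference was -0.78, and it ranged from -0.95 to -0.56 when 1 library was left out. The count of calls was 0 without HFD+control-FMT replicate 1, HFD+control-FMT replicate 2 or control replicate 1, was 1 without most other libraries, 4 without HFD replicate 1 or HFD+AOS replicate 3 and 8 without control replicate 3.

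Set against HFD itself, HFD+control-FMT libraries differed little in the haem pathway. Log2 differences ran from 0.004 for Ppox to 0.18 for Slc25a38, all 9 above 0 as for 44.4% of all genes, and the groups overlapped for all 9, where 4.57% of all genes were apart with HFD+control-FMT higher. By limma 0 of the 9 passed the adjusted threshold and 0 had an unadjusted p under 0.05, while 0.0154% and 2.69% of all genes did with HFD+control-FMT higher. For Alas2 the values were 282.89, 359.13 and 361.27 FPKM in HFD+control-FMT and 552.58, 227.56 and 224.20 FPKM in HFD. The HFD libraries enclosed the others. The 95% interval of the Alas2 difference, from -0.61 to 0.87 on the log2 scale, was the widest of the 9, and that of Slc25a38, from -0.18 to 0.55, was the narrowest of the 9.

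**Figure D2:**
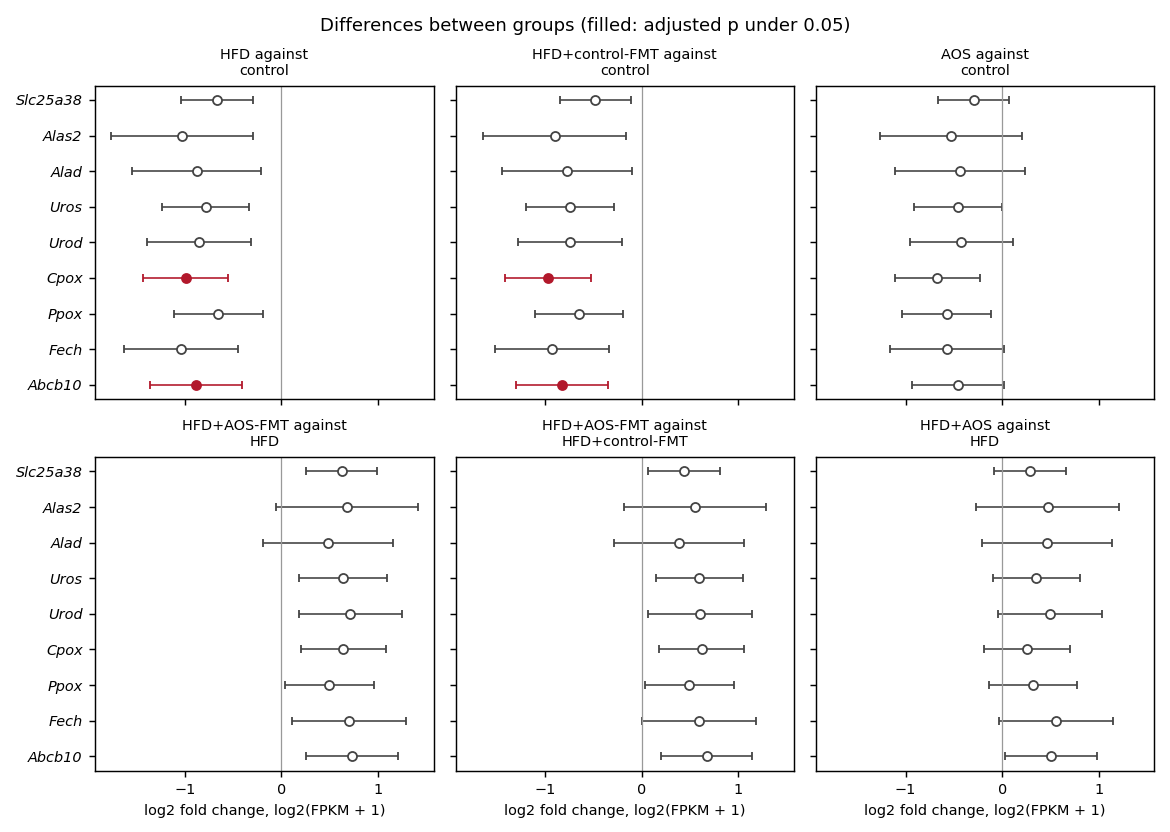
Log2 fold change of each gene in 6 comparisons, as log2(FPKM + 1) of the first-named group minus the second, with the 95% interval from limma; filled points have an adjusted p under 0.05. Only Cpox and Abcb10 are filled, in HFD and in HFD+control-FMT against control.

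Transplants from AOS donors came with higher haem pathway means than HFD+control-FMT or HFD alone, though 0 of 9 genes passed the adjusted threshold. Against HFD+control-FMT, where the stated difference is the donor, all 9 means were higher, as for 34.7% of all genes, and 8 genes did not overlap between the groups, against 7.8% of all genes apart with HFD+AOS-FMT higher. Abcb10 had 66.58, 66.95 and 61.71 FPKM in HFD+AOS-FMT and 37.93, 38.36 and 45.61 FPKM in HFD+control-FMT. Each HFD+AOS-FMT library stood well above the highest of the other group, with a log2 difference of 0.67 (SE 0.223, limma adjusted p = 0.362). Cpox had 96.64, 102.24 and 96.78 FPKM in HFD+AOS-FMT and 57.45, 56.69 and 79.69 FPKM in HFD+control-FMT. The difference was 0.62 (SE 0.208, limma adjusted p = 0.362). Alad was the exception to the separation, since HFD+AOS-FMT replicate 3 at 229.23 FPKM lay under HFD+control-FMT replicate 3 at 248.04 FPKM. Of the 9, 7 had an unadjusted p under 0.05, against 3.86% of all genes with HFD+AOS-FMT higher, and 0.00771% of all genes were called in this comparison in either direction. The median difference was 0.60, with a range of 0.52 to 0.66 when 1 library was left out, against a median of -0.05 over all genes.

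Against HFD alone the HFD+AOS-FMT means were also higher for all 9 genes, against 32.5% of all genes, with a median log2 difference of 0.64. The groups were apart for Slc25a38, Uros, Urod, Cpox and Abcb10, that is 5 of 9 against 6.25% of all genes with HFD+AOS-FMT higher. Slc25a38 had 66.57, 58.57 and 54.11 FPKM in HFD+AOS-FMT and 47.31, 34.44 and 34.49 FPKM in HFD, a difference of 0.62 (SE 0.174, limma adjusted p = 0.263). By limma, 0 genes of the 9 and 0% of all genes were called, and 7 of the 9 had an unadjusted p under 0.05, against 4.56% of all genes with HFD+AOS-FMT higher. Without HFD replicate 1, 1 of the 9 was called, Abcb10, at a limma adjusted p that rounds to 0.05. Against control, HFD+AOS-FMT means were lower for all 9 with a median of -0.16, against 43.6% of all genes lower. By limma 0 of 9 passed the adjusted threshold or an unadjusted p of 0.05, where 0% and 5.07% of all genes did with HFD+AOS-FMT lower. Cpox and Fech were apart in this comparison, 2 of 9 against 5.79% of all genes. Fech had 154.15, 158.51 and 169.20 FPKM in HFD+AOS-FMT and 259.30, 183.93 and 174.59 FPKM in control.

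The HFD+AOS-FMT libraries were close to each other for most of the pathway. The highest of the 3 was 1.06 times the lowest for Cpox, 1.08 times for Uros and for Abcb10, 1.10 times for Fech and 1.11 times for Alas2. It was 1.18 times for Urod, 1.21 times for Ppox, 1.23 times for Slc25a38 and 1.47 times for Alad, and for these last 3 the HFD+control-FMT libraries were closer, at 1.10, 1.20 and 1.24. In HFD libraries the same ratio was 1.73 for Cpox, 1.62 for Uros, 1.92 for Abcb10, 2.27 for Fech and 2.46 for Alas2. With 3 libraries a group this difference in spread was not tested.

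Dosing with AOS on the diet came with higher means than HFD, none of them past the threshold. HFD+AOS means were above HFD for all 9 genes, against 41.9% of all genes, with a median log2 difference of 0.47. The libraries of the 2 groups overlapped for each of the 9, where 6.42% of all genes were apart with HFD+AOS higher. Alas2 had 566.55, 514.64 and 258.20 FPKM in HFD+AOS and 552.58, 227.56 and 224.20 FPKM in HFD. In HFD+AOS replicate 3 was the low library and in HFD replicate 1 was the high one. By limma 0 of 9 passed the adjusted threshold, as did 0% of all genes, and Abcb10 alone of the 9 had an unadjusted p under 0.05, against 6.16% of all genes with HFD+AOS higher (0.51, SE 0.223, limma adjusted p = 0.314). Against control, HFD+AOS means were lower for all 9, against 39.8% of all genes, with a median of -0.41. By limma 0 of 9 were called, against 0.285% of all genes called lower and 2.09% in either direction, and 2 of 9 had an unadjusted p under 0.05, against 5.89% of all genes. Cpox alone was apart, where 4.78% of all genes were with HFD+AOS lower, with 95.69, 78.49 and 56.84 FPKM in HFD+AOS against 152.86, 120.33 and 108.15 FPKM in control (-0.73, SE 0.208, limma adjusted p = 0.0778). Without control replicate 3, 1 of the 9 was called in this comparison.

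Off the diet the sign was the other way. AOS means were below control for all 9 genes, against 37.6% of all genes, with a median log2 difference of -0.46, and Cpox, Ppox and Fech did not overlap, 3 of 9 against 5.1% of all genes with AOS lower. Cpox had 76.95, 91.02 and 69.52 FPKM in AOS and 152.86, 120.33 and 108.15 FPKM in control, a difference of -0.67 (SE 0.208, limma adjusted p = 0.181). Ppox had 58.37, 61.97 and 46.85 FPKM in AOS and 118.00, 74.00 and 64.85 FPKM in control, a difference of -0.57 (SE 0.216, limma adjusted p = 0.228). By limma 0 of 9 and 0% of all genes were called, and Uros, Cpox and Ppox had an unadjusted p under 0.05, against 5.23% of all genes with AOS lower.

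The interaction term, the difference made by AOS on the diet minus that off the diet, was positive for all 9 genes, against 34.8% of all genes, from 0.58 for Slc25a38 to 1.13 for Fech, with a median of 0.92 beside -0.09 over all genes. By limma 0 of 9 and 0% of all genes passed the adjusted threshold, the lowest adjusted p among members being 0.221 for Cpox and for Abcb10. Of the 9, 7 had an unadjusted p under 0.05, against 5.81% of all genes with a positive interaction. The opposite signs of AOS on and off the diet are therefore a description of these means, and the HFD and control libraries enter the term with opposite signs as well.

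The 9 genes did not vary independently of each other. Over the 18 libraries Pearson's r of log2(FPKM + 1) between 2 members was 0.863 to 0.979 with a median of 0.935 over 36 pairs, and with group means removed it was 0.824 to 0.979. These points share the libraries and their scaling, and the correlations are given as a description. Alas2 and Fech, the first and the last enzyme, were the pair with the highest r, 0.979 by both measures. Within a group 1 library was often highest for the whole pathway: replicate 1 for all 9 genes in HFD+AOS, HFD and control, replicate 2 for all 9 in AOS and replicate 3 for all 9 in HFD+control-FMT. In HFD+AOS-FMT the highest place was divided, 5, 2 and 2 genes. A count of 9 of 9 in 1 direction therefore does not hold 9 independent observations.

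**Figure D3:**
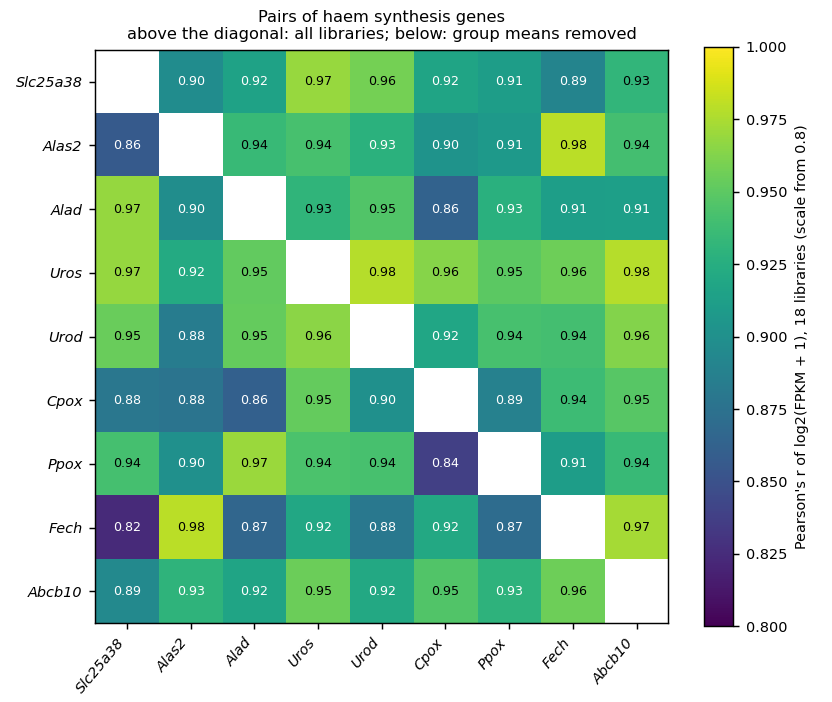
Pearson's r of log2(FPKM + 1) for the 36 pairs of haem synthesis genes over 18 libraries; above the diagonal all libraries, below it with each group's mean removed, on a colour scale that starts at 0.8. The values run from 0.824 to 0.979, and Alas2 with Fech is the highest pair on both sides.

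Other genes of the red cell lineage moved with the pathway. The mean log2(FPKM + 1) of 19 erythroid genes was taken, mostly surface proteins, the membrane skeleton and transcription factors, with Car2 and Trim10 besides and no haem enzyme. It was 5.21 to 6.25 in HFD and 6.39 to 7.12 in control, so these groups were apart for the marker list as well. It was 6.33 to 6.52 in HFD+AOS-FMT, 5.52 to 5.96 in HFD+control-FMT, 5.58 to 6.43 in HFD+AOS and 5.83 to 6.35 in AOS. By limma 10 of the 19 fell in HFD against control, where 1.3% of all genes did, and 12 fell in HFD+control-FMT against control, where 1.94% did. The first 10 calls were lost, like those of all genes, with no filter, with median ratio scaling and with haemoglobin left out of the total. In bulk tissue fewer erythroid cells and less haem enzyme RNA in each such cell cannot be told apart, and this touches every difference above. Haemoglobin genes took 27.4%, 11.0% and 10.8% of FPKM in HFD replicates 1, 2 and 3 and 34.3%, 27.1% and 21.5% in control replicates 1, 2 and 3. HFD replicate 1 thus stood apart from its group for haemoglobin as it did for the 9 genes, and the members' difference was as large with the haemoglobin genes left out of the library total. Their median log2 difference in HFD against control was then -0.92, -0.98 relative to all genes, although 0 of the 9 members and 0 of all genes passed the threshold under that scaling, against 357 of all genes as deposited. Lymphocyte markers had the opposite sign. All 9 T cell genes were higher in HFD than in control with no overlap of libraries, a median log2 difference of 0.69 and 4 called by limma, and in HFD+control-FMT against control all 9 were higher and 6 were called. All 8 B cell genes were higher in HFD than in control, with a median of 0.43, 0 called by limma and 6 at an unadjusted p under 0.05. Over all genes in HFD against control, 31.5% were lower, 2.75% were called in either direction and 3708 of 12969 had an unadjusted p under 0.05 by limma. In HFD+control-FMT against control, 34.2% of all genes were lower and 5.13% were called in either direction. The share of all genes apart with HFD higher is not given here. The T cell genes summed to 463.9 to 496.3 FPKM in HFD and 205.1 to 354.8 FPKM in control, and the B cell genes to 2488 to 3046 FPKM in HFD and 1522 to 2613 FPKM in control. The part of these lymphocyte genes, and of the neutrophil genes of control replicates 1 and 2, in the differences from control was not tested.

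The steps followed the erythroid mean with unequal slopes. Per unit of the erythroid mean on the log2 scale, Alas2 changed by 0.99 and Fech by 0.93, Alad, Cpox, Abcb10 and Urod by 0.82 to 0.86, Uros by 0.75, Ppox by 0.66 and Slc25a38 by 0.59. Pearson's r with the erythroid mean was 0.927 (Alad) to 0.991 (Uros) over the 18 libraries, which again share their scaling. Alas1, the synthase that other tissues use for the same first step, had a slope of 0.10 with r = 0.322. It averaged 13.94 ± 0.546 FPKM in HFD and 16.38 ± 3.67 FPKM in control (SD, n = 3 each), a log2 difference of -0.20 (limma adjusted p = 0.23). Among the 9 members the largest single departures from these lines were Alad in HFD+AOS-FMT replicate 3, lower by 0.433 on the log2 scale than its line, and Alas2 in HFD+control-FMT replicate 2, higher by 0.343. In control replicate 3, Slc25a38, Uros and Urod each had their farthest point, below the line.

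**Figure D4:**
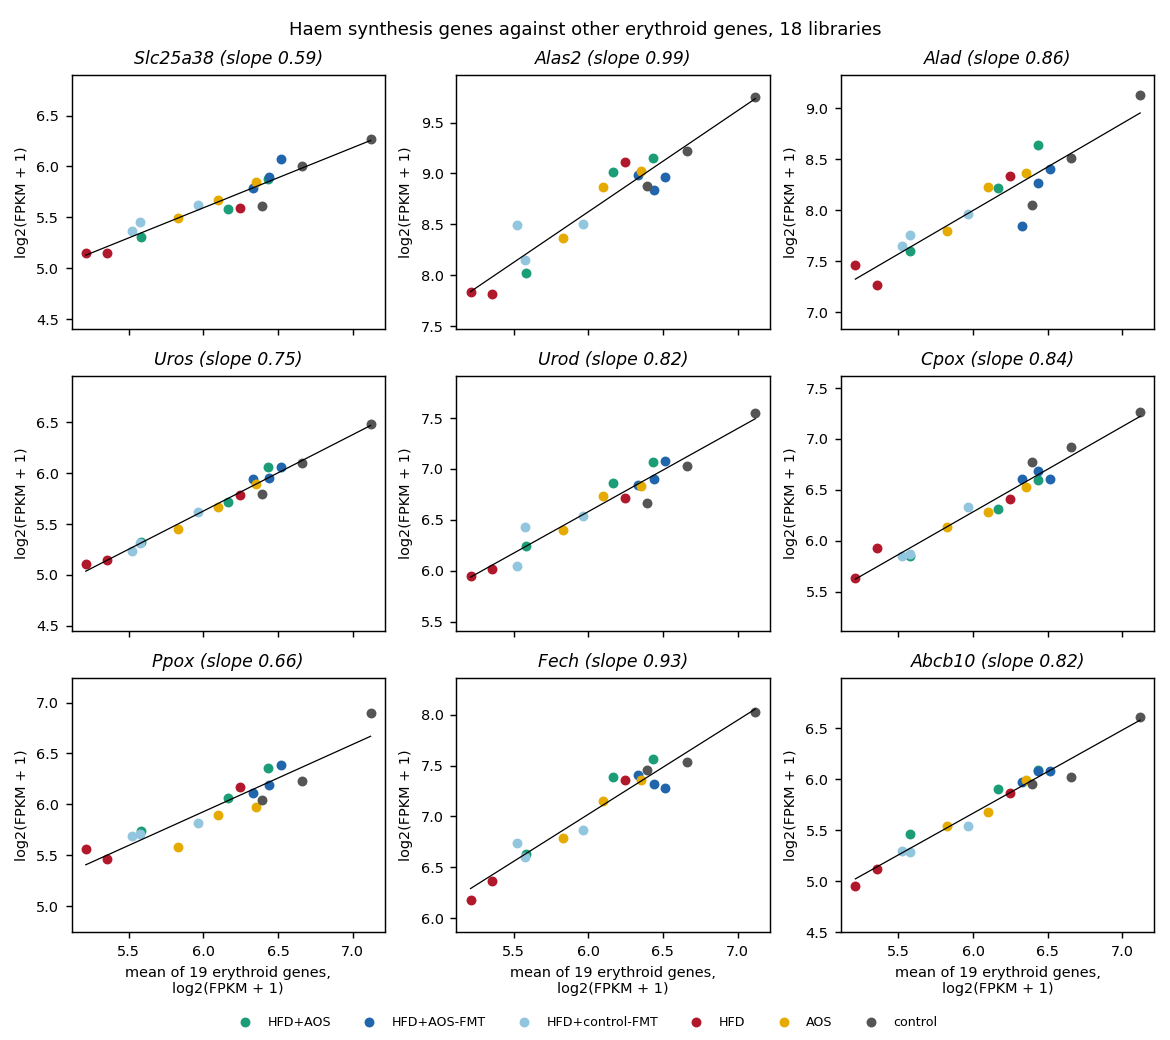
Each gene's log2(FPKM + 1) against the mean log2(FPKM + 1) of 19 other erythroid genes, 1 point a library coloured by group, with a least squares line. Slopes run from 0.59 for Slc25a38 to 0.99 for Alas2, and HFD replicates 2 and 3 are at the low end of every panel.

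The members did not all keep the same level relative to the erythroid genes. Slc25a38 minus the erythroid mean was -0.31 ± 0.306 in HFD and -0.76 ± 0.103 in control on the log2 scale (SD, n = 3 each). Uros minus the erythroid mean was -0.26 ± 0.181 in HFD and -0.59 ± 0.038 in control, and Ppox minus the erythroid mean was 0.13 ± 0.215 in HFD and -0.34 ± 0.103 in control. The libraries of the groups did not overlap on this measure for Uros, Ppox, Urod and Abcb10, each higher in HFD. A gene that changes by less than the erythroid mean tends to be higher on this measure where that mean is lower, as in HFD. The separation is therefore not independent of the slopes, and how far they account for it was not tested. Alas1, with a slope of 0.1, was apart too, from -2.39 to -1.326 in HFD and from -2.712 to -2.568 in control. Slc25a38, with the lowest slope among the members (0.59), overlapped, from -0.653 to -0.065 in HFD and from -0.853 to -0.649 in control. The share of all genes apart on this measure is not given here. Urod minus the erythroid mean was 0.62 ± 0.135 in HFD and 0.36 ± 0.078 in control, and Abcb10 minus the erythroid mean was -0.29 ± 0.079 in HFD and -0.53 ± 0.099 in control. Cpox, which had the smallest p of the pathway in HFD against control, was at 0.39 ± 0.205 in HFD and 0.26 ± 0.116 in control on this measure, and the groups overlapped, as they did for Slc25a38, Alas2, Alad and Fech. These differences were not tested.

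Among genes outside the pathway, the 5 whose pattern over the 18 libraries was most like the mean of the 9 members were Ank1 (r = 0.9919), Carhsp1 (r = 0.9913), Dhrs11 (r = 0.9906), Tspan33 (r = 0.9894) and Epor (r = 0.9885). Ank1 encodes the ankyrin of the red cell membrane and Epor the erythropoietin receptor, and both are on the erythroid list. For 8 of the 9 steps the nearest gene is given: it was Rhag for Uros (r = 0.9897), Slc4a1 for Fech (r = 0.9843), Mkrn1 for Alas2 (r = 0.9824) and Tspan8 for Abcb10 (r = 0.986). It was Blvrb for Urod (r = 0.9812), Lmna for Alad (r = 0.9799), Prdx2 for Slc25a38 (r = 0.9772) and Fn3k for Ppox (r = 0.9694). Rhag and Slc4a1 are red cell membrane proteins, and Blvrb reduces biliverdin, a product of haem breakdown.

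Around the 9 steps, a list of 23 tested genes for mitochondrial iron import, iron-sulphur clusters, porphyrin transport and haem sensing moved less. In HFD against control 21 of the 23 were lower, where 31.5% of all genes were, and the median log2 difference was -0.28. By limma 1 was called, where 1.3% of all genes were called lower. The called gene was Eif2ak1, the haem-regulated kinase that slows globin translation when haem is short, at 38.82 ± 9.55 FPKM in HFD and 60.54 ± 5.75 FPKM in control (SD, n = 3 each; log2 difference -0.65, SE 0.149, limma adjusted p = 0.0452). Slc25a37, mitoferrin, the mitochondrial iron importer, had 210.5 ± 80.0 FPKM in HFD and 390.4 ± 112.0 FPKM in control (-0.91, limma adjusted p = 0.0521). Fam210b, a mitochondrial protein of erythroid iron handling, had 12.36 ± 3.3 FPKM in HFD and 26.11 ± 8.8 FPKM in control (-0.999, limma adjusted p = 0.0503). In HFD+control-FMT against control 2 of the 23 were called, both lower: Eif2ak1 (-0.70, SE 0.149, limma adjusted p = 0.0272) and Slc25a37, at 193.3 ± 30.2 FPKM in HFD+control-FMT and 390.4 ± 112.0 FPKM in control (-0.98, SE 0.244, limma adjusted p = 0.0372). Genes called lower made up 1.94% of all genes there.

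Genes of haem export and breakdown did not share a direction: 7 of 11 tested were lower in HFD than in control, against 31.5% of all genes, with a median of -0.11. Abcg2, an exporter of porphyrins and haem, fell in both comparisons, with 22.63 ± 5.83 FPKM in HFD and 20.34 ± 3.0 FPKM in HFD+control-FMT against 41.72 ± 11.3 FPKM in control (SD, n = 3 each). Its log2 differences were -0.85 (SE 0.209, limma adjusted p = 0.0464) in HFD and -0.98 (SE 0.209, limma adjusted p = 0.0272) in HFD+control-FMT, and it was the only gene of this list called in either. Of all genes 1.3% were called lower in HFD and 1.94% in HFD+control-FMT. The HFD calls of Abcg2 and Eif2ak1 were lost with no filter, with median ratio scaling and with haemoglobin left out of the total, where 0 of all genes were called. Slc48a1, which carries haem out of the phagolysosome, had 57.66 ± 3.06 FPKM in HFD and 73.42 ± 8.97 FPKM in control (-0.34, limma adjusted p = 0.0541). Hmox2, the constitutive haem oxygenase, had 66.65 ± 5.99 FPKM in HFD and 54.97 ± 3.33 FPKM in control (0.27, limma adjusted p = 0.0586). In the other comparisons between groups 0 genes of these 2 lists were called by limma, with 0 to 8 of the 23 and 1 to 4 of the 11 at an unadjusted p under 0.05. Across these comparisons 0% to 2.09% of all genes were called in either direction. From 601 to 2453 of the 12969 genes had an unadjusted p under 0.05 by limma.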

How the data were processed

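Spleen RNA-seq of 18 libraries in 6 groups was analysed. Per the submitters' processing notes, reads were aligned with Bowtie 0.12.2 to mm10. The authors deposited 1 table of 19326 genes, in FPKM as judged from the numbers (RPKM cannot be told apart). Unit, counter and annotation: not given in the sources used here. Depth is therefore unknown, and no counting error is given.

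The log2(FPKM + 1) values of the 12969 genes that reached a group mean of 1 FPKM entered limma 3.58.1 (trend, robust; statmod 1.5.0; R 4.3.3) in 1 fit with 12 residual degrees of freedom, with Benjamini-Hochberg adjustment at 0.05 over all genes within each comparison. The fit was tested on simulated data in which each gene varied independently, unlike the 9 members. That simulation therefore cannot show how calls behave when genes vary together between libraries. Fold changes on this scale understate those of low genes. Groups were called apart when no library of one reached the range of the other. The 9 members and all lists were chosen with earlier results of these data known. Beside the members, the text names genes of the list of other haem pathway genes and of the list of export and breakdown genes that passed an adjusted p of 0.05, the 3 smallest p of each in HFD against control, Alas1 and the most alike genes by r. Of these, 1 gene that this rule selects is not reported here. The symbols Fdx2 and Ahsp were not matched.

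Alternatives were a pseudocount of 0.1 FPKM, no filter or a group mean of 5 FPKM, other scalings, other fits, a replicate block and leaving out each library. Deviations of same-numbered libraries had r over 0.1 for each of the 3 numbers only in HFD+AOS against HFD (r = 0.236, 0.268 and 0.191), where the block left the count of members called at 0. By another measure, 3 of 3 libraries correlated best with their own number in HFD+AOS against control and in HFD+AOS-FMT against control. The r were 0.025, 0.172 and 0.282 in the former and 0.065, 0.196 and 0.109 in the latter. There too the block left the count at 0. Positions are from GENCODE vM21 and promoters from RefSeq. Summaries and figures were made with matplotlib 3.10.9, pandas 2.3.3 and numpy 2.4.6 in Python 3.11.15.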

Additional observations from a re-analysis of the deposited data

How the results depend on the processing

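In HFD against control, 2 of the 9 genes were called. The count was 0 with no filter, median ratio scaling, quantile normalization, haemoglobin left out of the total or a fit to the groups compared only, 1 without limma's trend and robust options, 5 with a mean of at least 5 FPKM and 9 with the replicate block. With 1 library left out it ranged from 0 to 9, with 9 without HFD replicate 1 or control replicate 3, 6 without HFD+AOS replicate 3, 4 without HFD+AOS replicate 1, 1 without HFD+control-FMT replicate 3 and 0 without any of the other 13. Among all genes 357 were called, against 0 under median ratio scaling and 1842 with the block. In HFD+control-FMT against control 2 were called, against 1 with no filter, median ratio scaling, quantile normalization, haemoglobin left out or limma without trend or robust, 0 with the groups compared only and 8 with the block, and 0 to 8 with 1 library left out. The replicate numbers share no stated source in these 2 comparisons: correlations of same-numbered deviations were 0.151, 0.038 and 0.36 in the first and -0.137, 0.042 and 0.218 in the second, and 1 of 3 libraries correlated best with its own number in each. Leaving out 1 library gave 0 to 1 called in HFD+AOS-FMT against HFD and in HFD+AOS against control, and 0 to 3 in the F test (3 without HFD replicate 1, 2 without control replicate 3). The cause was not tested.

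The adjusted p of Cpox in HFD against control ran from 0.00798 to 0.339 over 27 alternatives (limma) and was under 0.05 in 9, and that of Abcb10 from 0.00978 to 0.339, under 0.05 in 7. In HFD+control-FMT against control Cpox was under 0.05 in 23 of 27 (0.0109 to 0.195) and Abcb10 in 9 (0.0193 to 0.202). Over 10 comparisons, 2292 of 2430 member values kept direction and side of the threshold, 52 crossed it to under 0.05, 60 to above it, and 26 changed sign.

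All sign changes were in 2 comparisons with small differences. In HFD+control-FMT against HFD, leaving out 1 library gave log2 differences of -0.094 to 0.555 for Alas2, -0.109 to 0.428 for Alad, -0.077 to 0.264 for Uros, -0.028 to 0.357 for Urod, -0.156 to 0.234 for Cpox, -0.129 to 0.222 for Ppox, -0.123 to 0.463 for Fech and -0.119 to 0.338 for Abcb10, and Ppox was at -0.006 with haemoglobin left out of the total. In HFD+AOS-FMT against control the ranges were -0.218 to 0.107 for Slc25a38, -0.31 to 0.035 for Uros, -0.346 to 0.094 for Urod, -0.33 to 0.097 for Ppox and -0.272 to 0.054 for Abcb10. The depth behind a value is unknown, so only the spread between libraries limits these differences.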

Other observations

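Genes of the cell cycle, 15 on the list and all tested, also had lower means in HFD than in control for all 15, against 31.5% of all genes, with a median log2 difference of -0.66. By limma 3 of them were called in this comparison and 2 in HFD+control-FMT against control, all lower. Of all genes 1.3% and 1.94% were called lower in these comparisons. The 3 calls in HFD against control were lost with no filter, with median ratio scaling and with haemoglobin left out of the total. In each of these settings 0 of all genes were called in that comparison. In HFD+AOS against HFD all 15 were higher with a median of 0.44, 0 were called by limma and 9 had an unadjusted p under 0.05. Of all genes 41.9% were higher, and 6.16% were higher at that unadjusted p. In HFD+AOS-FMT against HFD all 15 were higher with a median of 0.38, 0 were called by limma and 4 had an unadjusted p under 0.05. The shares of all genes were 32.5% and 4.56%. In AOS against control the median was -0.14 and 0 of the 15 were called by limma, with 0 at an unadjusted p under 0.05, where 1998 of 12969 genes were. The list is not specific to erythroid cells.

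The markers of red pulp macrophages, the cells that take up old red cells and recycle their iron, summed to 739.9 to 1164 FPKM in HFD and 690.5 to 888.4 FPKM in control over 9 genes, ranges that overlap. All 9 had higher means in HFD than in control, with a median log2 difference of 0.33, 0 called by limma and 4 at an unadjusted p under 0.05. Over all genes 31.5% were lower in HFD than in control, and 3708 of 12969 had an unadjusted p under 0.05 by limma in either direction. In HFD+AOS against control all 9 were higher, with a median of 0.39, 6 with groups that did not overlap and 1 called by limma. In that comparison 39.8% of all genes were lower and 2.09% were called in either direction. The share of all genes apart with HFD+AOS higher is not given here.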
